A study of Homo sapiens with 24 samples.

Results

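Imprinted genes are genes of which, in many tissues, the copy inherited from the mother or the copy inherited from the father is silenced. A list of 36 such genes was followed through all 24 RNA-seq libraries of the DBD KO experiment. The list was given by gene symbol and no measured value was a criterion, but it was chosen with earlier results of these data known. All 36 symbols were found among the 60641 symbols shared by all libraries. All 36 also have an entry in GENCODE release 44 (GRCh38), where they lie in 16 chromosomal domains.

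The experiment deleted sequences coding for DNA-binding domains (DBDs) of noncoding transcripts with CRISPR/Cas9 and sequenced RNA before and after the knockout (KO). Each group held 3 libraries. The A549 groups were wild type (WT B) and the DBD KOs of MSTRG.4401.1 and MSTRG.2513.6, and the HCT116 groups were the wild-type sets WT A and WT B and the DBD KOs of MSTRG.34636.7, MSTRG.4401.1 and MSTRG.2513.6. A549 is a lung adenocarcinoma cell line and HCT116 a colorectal carcinoma cell line, and neither line was given any agent according to the labels. The labels do not say whether a KO line was 1 clone or a pool, nor whether the 3 libraries of a group came from separate cultures, so p-values measure the spread between these libraries, which may be technical. None of the symbols starts with MSTRG, so the deletions could not be checked in these counts. The KOs of these transcripts were each compared with WT B of the same cell line, except MSTRG.34636.7 KO, which was compared with WT A, with which it shares its library numbering (1A, 2A, 3A).

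Imprinting is set in the germline by DNA methylation at imprinting control regions, which act over whole domains of genes. Many domains pair a protein-coding gene that is transcribed from one parental copy with a long noncoding RNA that is transcribed from the other. Several imprinted genes regulate fetal growth, and loss of their parent-specific expression is known from growth disorders and from tumours. The counts here pool both parental copies of each gene, so they measure expression levels and not the imprinting state. Of the 36 genes, 23 are classed as paternally expressed in textbook accounts and 9 as maternally expressed, and 4 were left unclassed because their expressed copy depends on tissue or transcript.

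Levels are given as CPM, the counts of a gene scaled to the total of all counts in its library, and ± after a CPM value is the SD over 3 libraries. Log2(fold change) with ± SE and adjusted p come from the quasi-likelihood test of edgeR, adjusted by Benjamini-Hochberg over all genes tested, and a gene was called at an adjusted p below 0.1 and a log2(fold change) beyond 1 in size, the thresholds of the study's methods. That test rescales libraries by TMM, so a fold change can depart from the ratio of 2 CPM values. Library totals ran from 25799359 to 102261808 counts, at which 3 counts correspond to 0.116 and 0.0293 CPM. Depth was lowest in A549 MSTRG.4401.1 KO (25799359 to 33205007 counts), and mitochondrially encoded transcripts took 6.10% ± 2.30 of their counts against 2.11% ± 0.221 in A549 WT B. Several of the genes overlap another on the opposite strand (PEG10 and SGCE, MEST and MESTIT1, NNAT and BLCAP, GNAS and GNAS-AS1, KCNQ1OT1 and KCNQ1) or the same strand (SNRPN and SNURF, PLAGL1 and HYMAI, PEG3 and ZIM2). Whether the strand was used in counting is not given in the sources used here, so reads of overlapping genes cannot be told apart.

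The libraries S8 and S9, labelled HCT116 MSTRG.2513.6 KO, stood apart from the other HCT116 libraries. Over all genes, log2(CPM + 1) of S8 and S9 correlated with the 9 A549 libraries at r from 0.971 to 0.995 and with the 12 HCT116 libraries of other groups at r from 0.916 to 0.927. The third library of that group, S11, showed the opposite order, with r from 0.913 to 0.920 and from 0.972 to 0.987. Ranges were compared for the imprinted genes only, so no share of all genes stands beside the next count. In 11 of the 36 imprinted genes the A549 range did not overlap that of the 12 other HCT116 libraries. S8 was inside the A549 range in 11 of these 11 and S9 in 8, with the other 3 nearer to it, whereas S11 was inside the HCT116 range in 8 and nearer to it in the other 3. A list of 5 genes abundant in A549 summed to 7002 to 11588 CPM in A549 and to 6.84 to 89.3 CPM in HCT116 groups other than MSTRG.2513.6 KO, where it ran from 19.97 to 10154 CPM. A list of 5 colon epithelium and HCT116 genes summed to 7.87 to 25.3 CPM in A549 and 146 to 271 CPM in those HCT116 groups, and ran from 7.84 to 132 CPM in HCT116 MSTRG.2513.6 KO. EPCAM and CDX2 carry the difference in that sum, whereas CDH17 (6.41 CPM in A549 WT B and 0.561 in HCT116 WT B) and VIL1 (1.89 and 1.01 CPM) ran the other way. The labels were kept, and tests in this group are given with S8 and S9. For some genes, among them CDKN1C, DIRAS3, SLC22A18, ZDBF2 and HELLS, values are also given without these libraries. Defining markers of leukocytes summed to at most 2.30 CPM and those of endothelium to at most 5.59 CPM in any library, a fibroblast list ran from 7.76 to 73.3 CPM, nearly all of it COL1A1, with COL1A2 and DCN at or near 0 in every group, and alveolar type 2 markers of the lung summed to no more than 8.03 CPM in any library, A549 included. LGR5, a marker of colon stem cells, had no count in any library of HCT116 WT B.

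The promoter windows of 3 loci are shown first because the differences described below turn on their genes: presence in A549 against no counts in HCT116 (SNRPN with SNURF), loss in A549 MSTRG.4401.1 KO (MEG3), and a lower level in A549 than in HCT116 (HYMAI with PLAGL1). The windows come from RefSeq (GRCh38.p14) and run from 250 bases before to 50 bases after an annotated start, written 5′ to 3′ on the gene's strand with every CG in capitals, since methylation at CG is the mark that imprinting uses. The window shared by SNURF and SNRPN is chr15:24954737-24955036 on the plus strand, the MEG3 window with the lowest start is chr14:100825858-100826157 on the plus strand, and the window shared by HYMAI and PLAGL1 is chr6:144008210-144008509 on the minus strand.
SNURF and SNRPN: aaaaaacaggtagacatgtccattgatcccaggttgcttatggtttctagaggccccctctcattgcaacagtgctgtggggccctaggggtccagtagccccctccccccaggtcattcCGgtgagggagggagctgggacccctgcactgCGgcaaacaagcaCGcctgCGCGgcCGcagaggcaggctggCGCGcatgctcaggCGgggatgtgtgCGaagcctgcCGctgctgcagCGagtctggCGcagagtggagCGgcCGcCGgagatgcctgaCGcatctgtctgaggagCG
MEG3: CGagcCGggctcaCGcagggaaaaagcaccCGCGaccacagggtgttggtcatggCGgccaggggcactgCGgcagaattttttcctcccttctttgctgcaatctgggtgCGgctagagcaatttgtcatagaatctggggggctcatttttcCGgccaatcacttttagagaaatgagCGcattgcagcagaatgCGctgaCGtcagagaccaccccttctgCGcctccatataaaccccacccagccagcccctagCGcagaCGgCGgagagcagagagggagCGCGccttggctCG
HYMAI and PLAGL1: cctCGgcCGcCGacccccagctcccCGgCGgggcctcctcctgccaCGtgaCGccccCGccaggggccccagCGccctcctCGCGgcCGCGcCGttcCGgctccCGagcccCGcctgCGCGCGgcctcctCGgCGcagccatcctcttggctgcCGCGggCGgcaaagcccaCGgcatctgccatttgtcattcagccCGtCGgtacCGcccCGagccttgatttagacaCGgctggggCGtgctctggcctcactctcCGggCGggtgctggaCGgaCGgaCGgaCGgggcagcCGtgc
These windows hold 18, 19 and 39 CG, in that order, with a GC content of 64.3%, 59.0% and 75.7%. The letters TGCCGC, the core recognised by the imprint-maintaining zinc finger protein ZFP57, were searched on both strands and found 2, 1 and 2 times. RefSeq windows were matched for 22 of the 36 genes, giving 48 distinct windows, and 21 of these (43.8%) hold the letters at least 1 time, against 5839 of all 34943 distinct windows (16.7%). The median number of CG was 18 in the windows of imprinted genes and 14 in all windows. Alternative starts of a gene give overlapping windows, as for MEG3 at 100825858 and 100825868, so 1 site can count in several windows. The letters themselves contain CG, and no comparison with windows of equal CG number was made. A match describes the letters only, and methylation was not measured. Windows were not matched for IGF2, MEG8, DLK1, PEG3, ZIM2, PEG10, SGCE, KCNQ1OT1, CDKN1C, PHLDA2, SLC22A18, GNAS-AS1, NNAT and DLX5.

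Of the 36 genes, 20 had a mean of at least 1 CPM in all 8 groups, 9 in some groups and 7 in none. The 9 were IGF2, MEG3, MEG8, RTL1, CDKN1C, SNRPN, SNURF, HYMAI and DIRAS3. Of the 7 low genes, ZIM2, MAGEL2 and DLX5 had no count in any library. PEG3 had counts in 3 libraries (0.0623 to 0.174 CPM), NDN in 2 (0.0470 and 0.167 CPM), DLK1 stayed at or below 0.385 CPM and GNAS-AS1 at or below 0.896 CPM. In bulk RNA, fewer cells expressing a gene and less RNA per cell cannot be told apart, which holds for every level below.

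**Figure D1:**
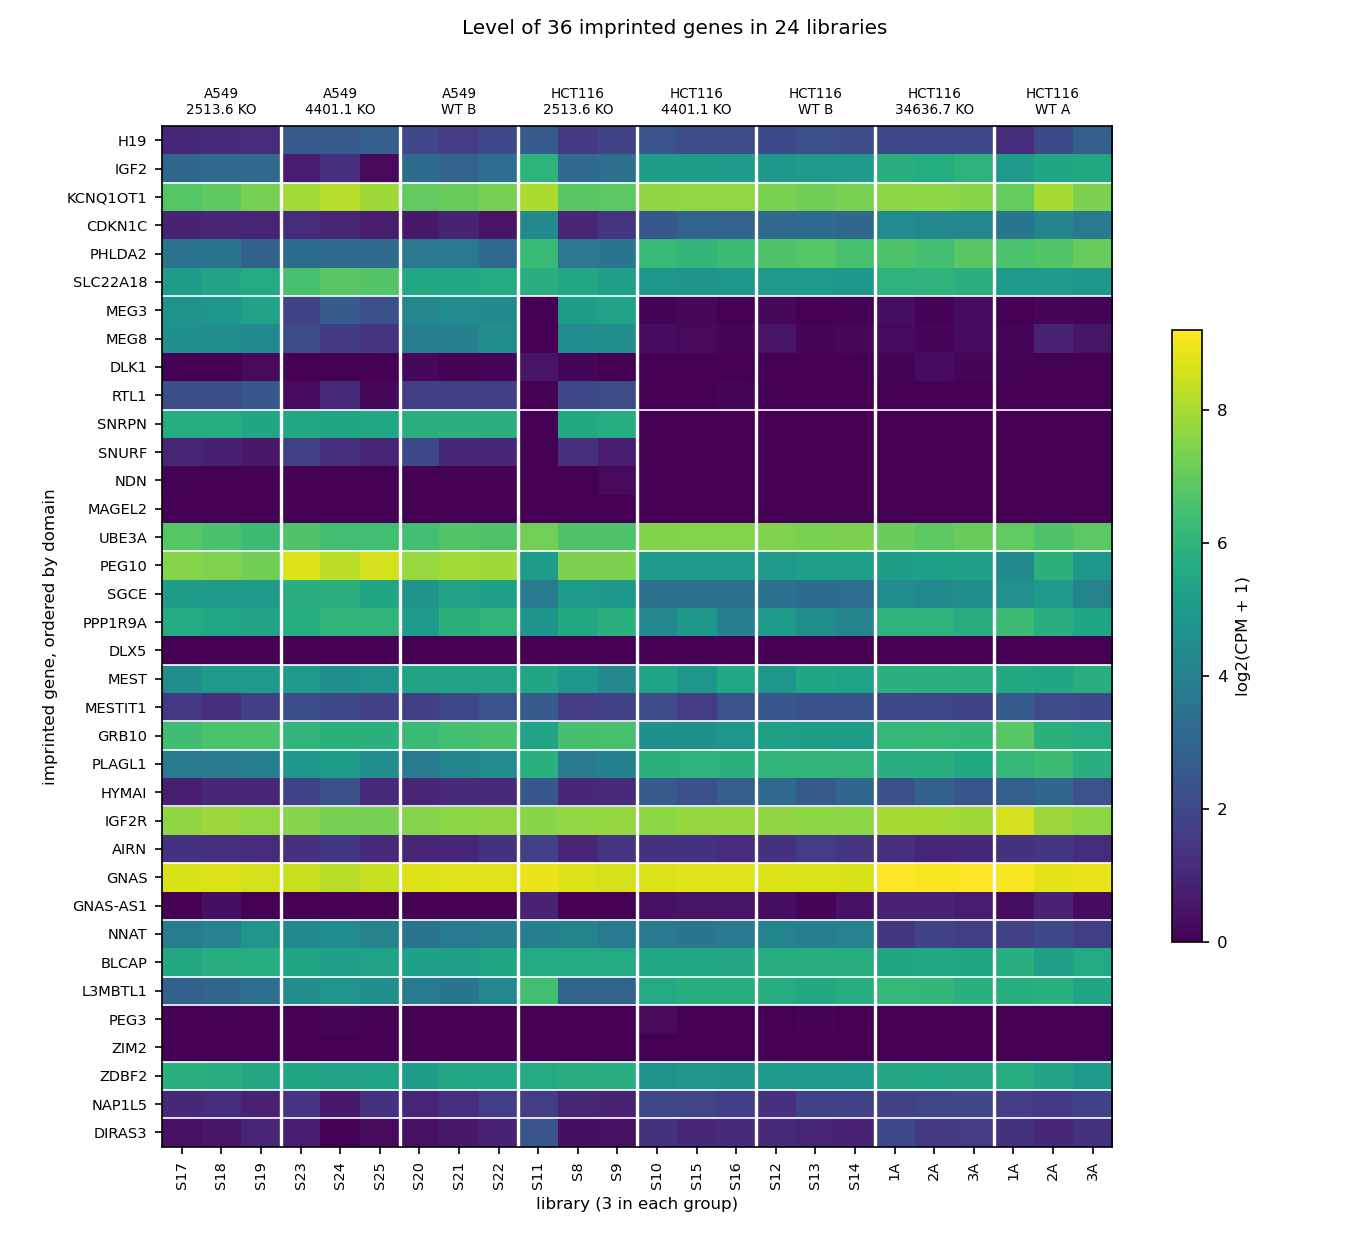
Colour shows log2(CPM + 1) of the 36 imprinted genes (rows, ordered by domain) in the 24 libraries (columns, 3 in each of 8 groups). SNRPN is dark in all HCT116 columns except S8 (46.7 CPM) and S9 (50.4 CPM), and IGF2, MEG3, MEG8 and RTL1 darken in the A549 MSTRG.4401.1 KO columns.

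Per kilobase of exon, PEG10 had the highest level among the imprinted genes in A549 WT B, at 34.7 ± 1.596 CPM per kb. GNAS followed with 19.2 ± 0.433 and SNRPN with 16.7 ± 0.174, and the libraries of these 3 genes did not overlap. PHLDA2 (11.5 ± 2.65) and NNAT (9.51 ± 1.41) came next, and their ranges overlapped. In HCT116 WT B the order was PHLDA2 with 109 ± 10.4 CPM per kb, GNAS with 18.6 ± 0.544, NNAT with 11.96 ± 0.695 and PLAGL1 with 10.1 ± 0.102, again without overlap between neighbours.

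The first question was how the wild-type cell lines differ in imprinted genes. Of the 29 imprinted genes tested between A549 WT B and HCT116 WT B, 9 were called higher in A549 and 6 lower. These are 31.0% and 20.7% of the genes tested, beside 17.2% higher and 18.5% lower over all genes tested. The median size of the log2(fold change) was 1.38 over the imprinted genes and 0.72 over all genes. SNRPN and SNURF on chromosome 15 and MEG3, MEG8 and RTL1 on chromosome 14 were at or near 0 counts in HCT116 WT B. Of these, SNRPN, SNURF, MEG3 and RTL1 did not pass the filter on low counts between the HCT116 wild types. They entered the test through A549, where they are high, and they count in the 31.0%. CDKN1C, PHLDA2, IGF2, PLAGL1, HYMAI and L3MBTL1 were the 6 genes lower in A549.

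SNRPN (chr15:24823637-24978723) encodes SmN, a protein of spliceosomal particles, and shares its transcript with SNURF. SNRPN read 56.6, 57.5 and 56.4 CPM in A549 WT B and 0 in each HCT116 WT B library, a level at least 1107-fold higher in A549 when 3 counts per library are taken as the floor. SNURF read 3.11, 1.11 and 1.06 CPM against 0, at least 34.3-fold higher. No count of either gene occurred in 13 HCT116 libraries, all but S8 and S9, among 805394981 counts in all, where 3 counts would be 0.00372 CPM. UBE3A, a ubiquitin ligase gene of the same domain whose paternal copy is silent in neurons, was present in both lines. Its level of 95.9 ± 7.73 CPM in A549 WT B was below the 166 ± 4.30 CPM of HCT116 WT B, with a log2(fold change) of -0.53 ± 0.05 (adjusted p = 0.000121), short of the fold threshold. NDN and MAGEL2, which lie further upstream in the domain, were at or near 0 in both lines.

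MEG3 (chr14:100779410-100861031), a noncoding RNA with growth-suppressing roles, read 18.4, 20.5 and 20.2 CPM in A549 WT B and 0.133, 0 and 0.0499 CPM in HCT116 WT B. Its log2(fold change) was 8.63 ± 0.51 (adjusted p = 6.45e-06). MEG8, a noncoding RNA downstream of it, read 14.5, 15.5 and 22.2 CPM against 0.400, 0.125 and 0.150 CPM, with a log2(fold change) of 6.55 ± 0.40 (adjusted p = 7.8e-06). RTL1, a retrotransposon-derived gene needed in the placenta that lies on the opposite strand, read 2.24, 2.27 and 2.36 CPM against 0, at least 44.6-fold higher in A549. RTL1 overlaps microRNA genes and MIR493HG, and MEG3 and MEG8 share exons with MIR493HG, so counts within this cluster are uncertain between these genes. DLK1, the paternally expressed Notch ligand of the domain, did not pass the filter on low counts in any comparison.

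PEG10, a retrotransposon-derived gene active in placenta and in tumours, read 221, 243 and 233 CPM in A549 WT B and 31.5, 35.3 and 35.6 CPM in HCT116 WT B, a log2(fold change) of 3.03 ± 0.08 (adjusted p = 1.42e-07). Its divergent neighbour SGCE, a sarcoglycan, was at 34.1 ± 6.80 against 9.17 ± 0.869 CPM (2.15 ± 0.14, adjusted p = 9.72e-06). PPP1R9A, an actin-binding scaffold of the same domain, was at 52.5 ± 16.7 against 23.9 ± 7.32 CPM (1.38 ± 0.27, adjusted p = 0.00333), and its nearest libraries were 33.4 and 31.9 CPM. GRB10, an adaptor that restrains insulin and growth factor receptors, was at 85.8 ± 8.07 against 34.1 ± 2.05 CPM (1.59 ± 0.06, adjusted p = 1.05e-06). The calls of SGCE, PPP1R9A and GRB10 rest on the wild-type set: against HCT116 WT A their log2(fold change) fell to 0.76, 0.05 and 0.43 and none was called.

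Among the 6 genes lower in A549, CDKN1C, an inhibitor of cyclin-dependent kinases, read 0.544, 0.908 and 0.385 CPM in A549 WT B and 7.95, 8.35 and 7.47 CPM in HCT116 WT B. Its log2(fold change) was -3.40 ± 0.31 (adjusted p = 6.02e-05). PHLDA2, a placental growth restrainer from the same domain on chromosome 11, read 11.99, 12.06 and 7.80 CPM against 102, 109 and 90.3 CPM (-2.97 ± 0.21, adjusted p = 1.56e-05). For both genes every A549 library lay several-fold below every HCT116 library. IGF2, the fetal growth factor, was at 8.12 ± 1.29 against 31.7 ± 2.17 CPM (-1.71 ± 0.14, adjusted p = 3.71e-05). PLAGL1, a zinc finger factor that limits proliferation, was at 16.8 ± 3.77 against 64.4 ± 0.653 CPM (-1.69 ± 0.12, adjusted p = 1.76e-05), and HYMAI, the noncoding RNA that shares its promoter window, was at 1.12 ± 0.106 against 6.78 ± 1.56 CPM (-2.33 ± 0.21, adjusted p = 6.09e-05). L3MBTL1, a Polycomb-related chromatin reader, was at 13.9 ± 3.69 against 49.7 ± 3.42 CPM (-1.58 ± 0.15, adjusted p = 8.96e-05). GNAS-AS1 did not pass the filter on low counts here and was at 0 in A549 WT B against 0.237 ± 0.131 CPM in HCT116 WT B, at least 4.09-fold lower. It was called lower in A549 by edgeR's test with no filter (-6.62 ± 1.35, adjusted p = 0.0117). DESeq2 called it as well (-5.82 ± 1.70, adjusted p = 0.00189). Both are fitted values over a group at 0.

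**Figure D2:**
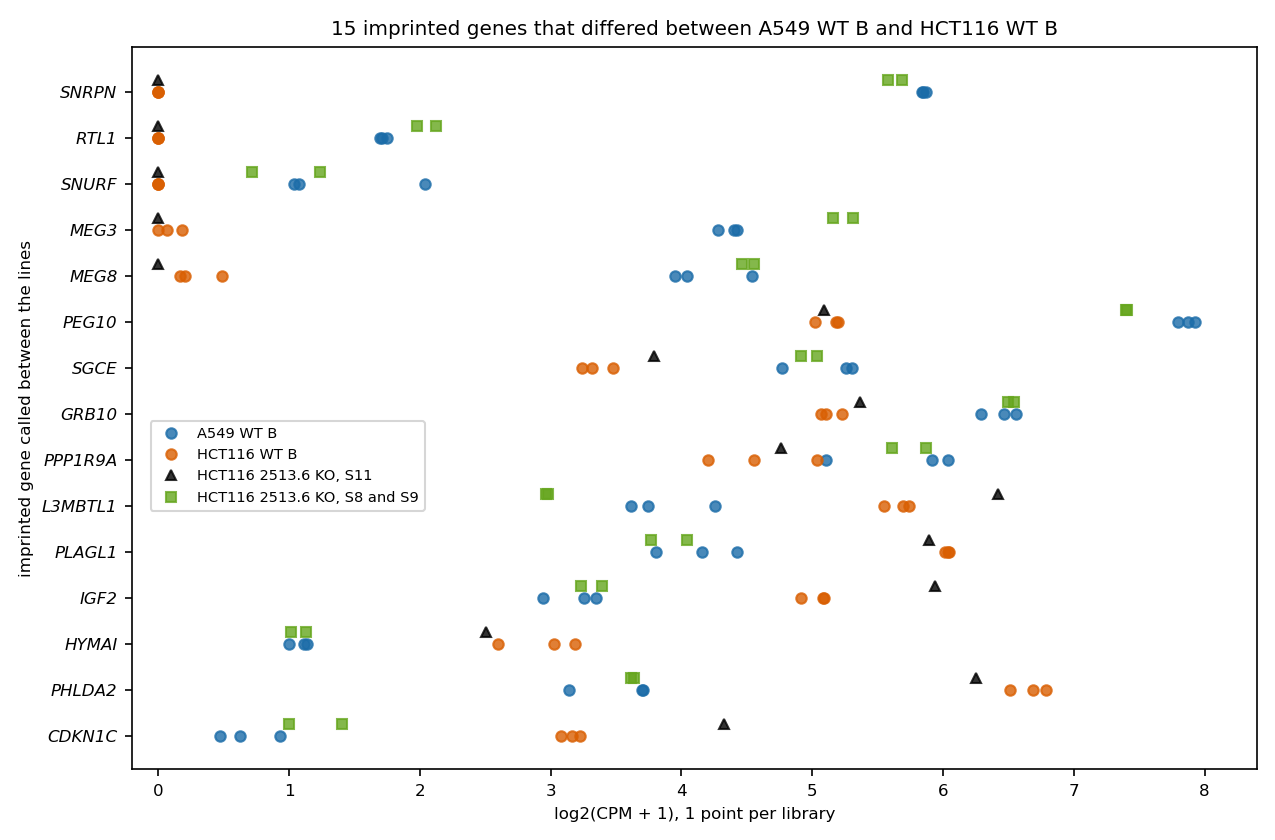
Each point is 1 library on a log2(CPM + 1) axis for the 15 imprinted genes called between A549 WT B and HCT116 WT B, with the HCT116 MSTRG.2513.6 KO libraries drawn just above. S8 and S9 (squares) sit by the A549 points, for example at 34.7 and 38.7 CPM of MEG3, and S11 (triangle) at 0 CPM of MEG3 sits with HCT116.

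H19, the maternally expressed noncoding RNA next to IGF2, did not pass the test between the lines (2.73 ± 0.501 against 3.46 ± 0.246 CPM, -0.08 ± 0.20, adjusted p = 0.745). Also without a call were the receptor IGF2R (0.21 ± 0.05, adjusted p = 0.00556), the stimulatory G protein gene GNAS (0.31 ± 0.06, adjusted p = 0.0026), SLC22A18, a transporter gene (0.90 ± 0.06, adjusted p = 1.37e-05), and ZDBF2, a zinc finger gene (0.61 ± 0.08, adjusted p = 0.000446), all of which met the adjusted p but not the fold threshold.

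The second question was what changed in A549 after the DBD KOs. In A549 MSTRG.4401.1 KO, 2 of the 29 imprinted genes tested were called higher and 4 lower. These are 6.90% and 13.8%, beside 11.1% higher and 4.32% lower over all genes tested. The 4 that fell were IGF2 and 3 genes of the DLK1-MEG3 domain (MEG3, MEG8, RTL1), and the 2 that rose were SLC22A18 and HYMAI. The median log2(fold change) was -0.13 over the imprinted genes and 0.12 over all genes. In A549 MSTRG.2513.6 KO none was called higher and 1, H19, was called lower (3.45% of 29), beside 1.13% higher and 1.79% lower over all genes tested, so a single call is near that background.

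In the DLK1-MEG3 domain MEG3 and RTL1 lay on opposite sides of wild type in the A549 KOs. MEG3 read 25.3, 27.4 and 38.3 CPM in MSTRG.2513.6 KO, 18.4, 20.5 and 20.2 CPM in WT B and 2.62, 5.27 and 3.74 CPM in MSTRG.4401.1 KO. The groups did not overlap. The fall in MSTRG.4401.1 KO was 5.38-fold (-2.43 ± 0.25, adjusted p = 0.000492), and the higher level in MSTRG.2513.6 KO met the adjusted p without reaching the fold threshold (0.61 ± 0.15, adjusted p = 0.0797). MEG8 read 23.4, 22.1 and 19.8 CPM in MSTRG.2513.6 KO, 14.5, 15.5 and 22.2 CPM in WT B and 3.37, 1.98 and 1.601 CPM in MSTRG.4401.1 KO, where it fell 7.85-fold (-2.97 ± 0.28, adjusted p = 0.000319). MSTRG.2513.6 KO overlapped WT B for MEG8, and that comparison gave 0.34 ± 0.17 (adjusted p = 0.369). RTL1 read 3.68, 3.60 and 4.77 CPM, then 2.24, 2.27 and 2.36 CPM, then 0.211, 1.16 and 0.152 CPM in the same order of groups. Its fall in MSTRG.4401.1 KO was 4.85-fold (-2.28 ± 0.62, adjusted p = 0.0245), and in MSTRG.2513.6 KO it gave 0.80 ± 0.19 (adjusted p = 0.0625). Without S24, the KO library with the most RTL1, the value in MSTRG.4401.1 KO was -3.71. Over all libraries left out in turn, RTL1 ran from -3.71 to -1.89. MEG9, a noncoding RNA of the same domain from the list of other imprinted genes, gave -2.003 ± 0.77 in MSTRG.4401.1 KO (adjusted p = 0.0749). The higher share of mitochondrial transcripts in MSTRG.4401.1 KO was 3.50% in S23, 7.87% in S24 and 6.93% in S25, and MEG3, MEG8 and RTL1 were below all WT B libraries in each of these 3 libraries; its part in these levels was not tested.

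In the IGF2-H19 domain, IGF2 read 8.53, 6.68 and 9.17 CPM in WT B, 7.58, 8.28 and 8.02 CPM in MSTRG.2513.6 KO and 0.632, 1.40 and 0.191 CPM in MSTRG.4401.1 KO. The fall in MSTRG.4401.1 KO was 11.7-fold, the largest among the imprinted genes of that comparison (-3.55 ± 0.50, adjusted p = 0.00202), while MSTRG.2513.6 KO overlapped wild type (-0.03 ± 0.17, adjusted p = 0.953). Without S24, which held the most IGF2 of the MSTRG.4401.1 KO libraries, the value was -4.35. Over all libraries left out in turn, IGF2 ran from -4.35 to -3.14. IGF2 shares exons with INS-IGF2, between which the counts cannot be divided. H19 read 2.90, 2.17 and 3.13 CPM in WT B, 1.08, 1.19 and 1.24 CPM in MSTRG.2513.6 KO and 5.15, 5.27 and 5.87 CPM in MSTRG.4401.1 KO, again with no overlap between the groups. Its fall in MSTRG.2513.6 KO was 2.34-fold (-1.23 ± 0.23, adjusted p = 0.0291), a call that is lost without S18, S20 or S22, where the log2(fold change) stayed between -1.37 and -1.11 over all libraries left out in turn. In MSTRG.4401.1 KO it gave 0.91 ± 0.22 (adjusted p = 0.0143), short of the fold threshold, and 1.08 with upper-quartile normalization, under which it was called.

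**Figure D3:**
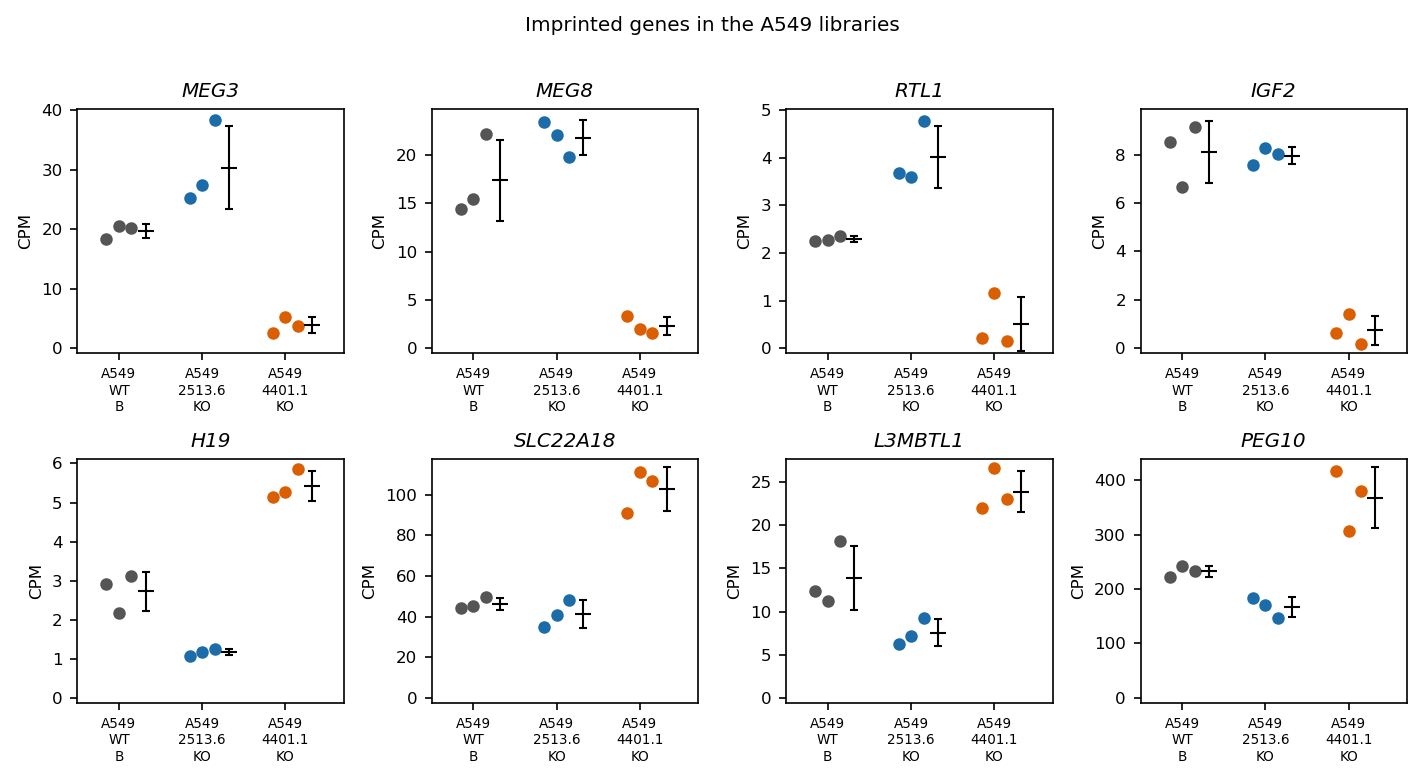
Points are CPM of 1 library each for 8 imprinted genes in A549 WT B and the KOs of MSTRG.2513.6 and of MSTRG.4401.1, with the mean and SD (n = 3) beside them. IGF2 falls from 8.12 to 0.739 CPM in MSTRG.4401.1 KO and stays at 7.96 CPM in MSTRG.2513.6 KO, and the groups of MEG3, RTL1, H19, L3MBTL1 and PEG10 do not overlap.

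In the KCNQ1OT1 domain of chromosome 11, SLC22A18 read 44.3, 45.1 and 49.6 CPM in A549 WT B and 90.8, 111 and 107 CPM in MSTRG.4401.1 KO, 2.11-fold higher (1.08 ± 0.12, adjusted p = 0.000633). With DESeq2 its log2(fold change) was 0.96, below the fold threshold. KCNQ1OT1, the antisense RNA that silences its neighbours in cis, read 128, 134 and 161 CPM against 244, 289 and 238 CPM, with 0.79 ± 0.11 (adjusted p = 0.00216), and every KO library was above every WT B library. CDKN1C (0.57 ± 0.43, adjusted p = 0.334) and PHLDA2 (-0.44 ± 0.22, adjusted p = 0.155) did not pass the test. In MSTRG.2513.6 KO none of the 4 genes of this domain passed it, with adjusted p from 0.488 to 0.795.

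HYMAI read 1.00, 1.16 and 1.20 CPM in WT B and 2.59, 3.91 and 1.22 CPM in MSTRG.4401.1 KO, where S25 lies at the wild-type level. It was called there (1.11 ± 0.39, adjusted p = 0.0573), but the call is lost without S23, S24, S20, S21 or S22, with DESeq2 and at an adjusted p below 0.05. PLAGL1, which overlaps it, was at 28.6 ± 6.64 against 16.8 ± 3.77 CPM with no overlap (0.70 ± 0.19, adjusted p = 0.0236). L3MBTL1 read 12.4, 11.2 and 18.1 CPM in WT B, 6.26, 7.20 and 9.27 CPM in MSTRG.2513.6 KO and 22.04, 26.6 and 23.1 CPM in MSTRG.4401.1 KO. It gave -0.88 ± 0.21 in the first KO (adjusted p = 0.0673) and 0.71 ± 0.18 in the second (adjusted p = 0.0168), both short of the fold threshold. PEG10 moved in the same directions: 184, 171 and 147 CPM in MSTRG.2513.6 KO (-0.47 ± 0.12, adjusted p = 0.0895) and 417, 306 and 380.2 CPM in MSTRG.4401.1 KO (0.58 ± 0.13, adjusted p = 0.0119), on either side of the 221 to 243 CPM of WT B.

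MEST, a hydrolase-like gene of the mesoderm, was at 39.8 ± 1.26 CPM in WT B and lower in both KOs, at 27.3 ± 4.45 CPM in MSTRG.2513.6 KO (-0.55 ± 0.14, adjusted p = 0.0795) and 27.5 ± 5.19 CPM in MSTRG.4401.1 KO (-0.62 ± 0.14, adjusted p = 0.0116). Both comparisons share the WT B libraries. Besides KCNQ1OT1, H19, MEST, L3MBTL1, PEG10 and PLAGL1, another 6 genes met the adjusted p in MSTRG.4401.1 KO without the fold threshold. GRB10 (-0.59 ± 0.09, adjusted p = 0.00319), SNRPN (-0.46 ± 0.10, adjusted p = 0.0113), GNAS (-0.44 ± 0.12, adjusted p = 0.0214) and IGF2R (-0.29 ± 0.10, adjusted p = 0.0477) were lower. NNAT, a proteolipid of the developing brain (0.53 ± 0.14, adjusted p = 0.0227), and SGCE (0.50 ± 0.15, adjusted p = 0.0322) were higher. MESTIT1, AIRN, BLCAP, CDKN1C, PHLDA2, PPP1R9A, SNURF, UBE3A, ZDBF2, NAP1L5 and DIRAS3 did not meet the adjusted p, with values from 0.155 to 0.744.

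Compared directly, the KO lines of A549 differed in 8 of 29 imprinted genes, 4 higher and 4 lower in MSTRG.2513.6 KO. These are 13.8% in each direction, beside 5.75% higher and 10.9% lower over all genes tested. The 4 higher were IGF2 (3.59 ± 0.50, adjusted p = 0.00158), MEG3 (3.11 ± 0.28, adjusted p = 0.000185), MEG8 (3.38 ± 0.28, adjusted p = 0.000123) and RTL1 (3.16 ± 0.61, adjusted p = 0.00702). The 4 lower were H19 (-2.08 ± 0.23, adjusted p = 0.00047), L3MBTL1 (-1.52 ± 0.18, adjusted p = 0.000786), SLC22A18 (-1.18 ± 0.15, adjusted p = 0.00119) and HYMAI (-1.28 ± 0.40, adjusted p = 0.0432). The HYMAI call is lost without S17, S18 or S24. H19 was 4.22-fold lower and IGF2 more than 10-fold higher in MSTRG.2513.6 KO, and each gene's libraries were fully separated.

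**Figure D4:**
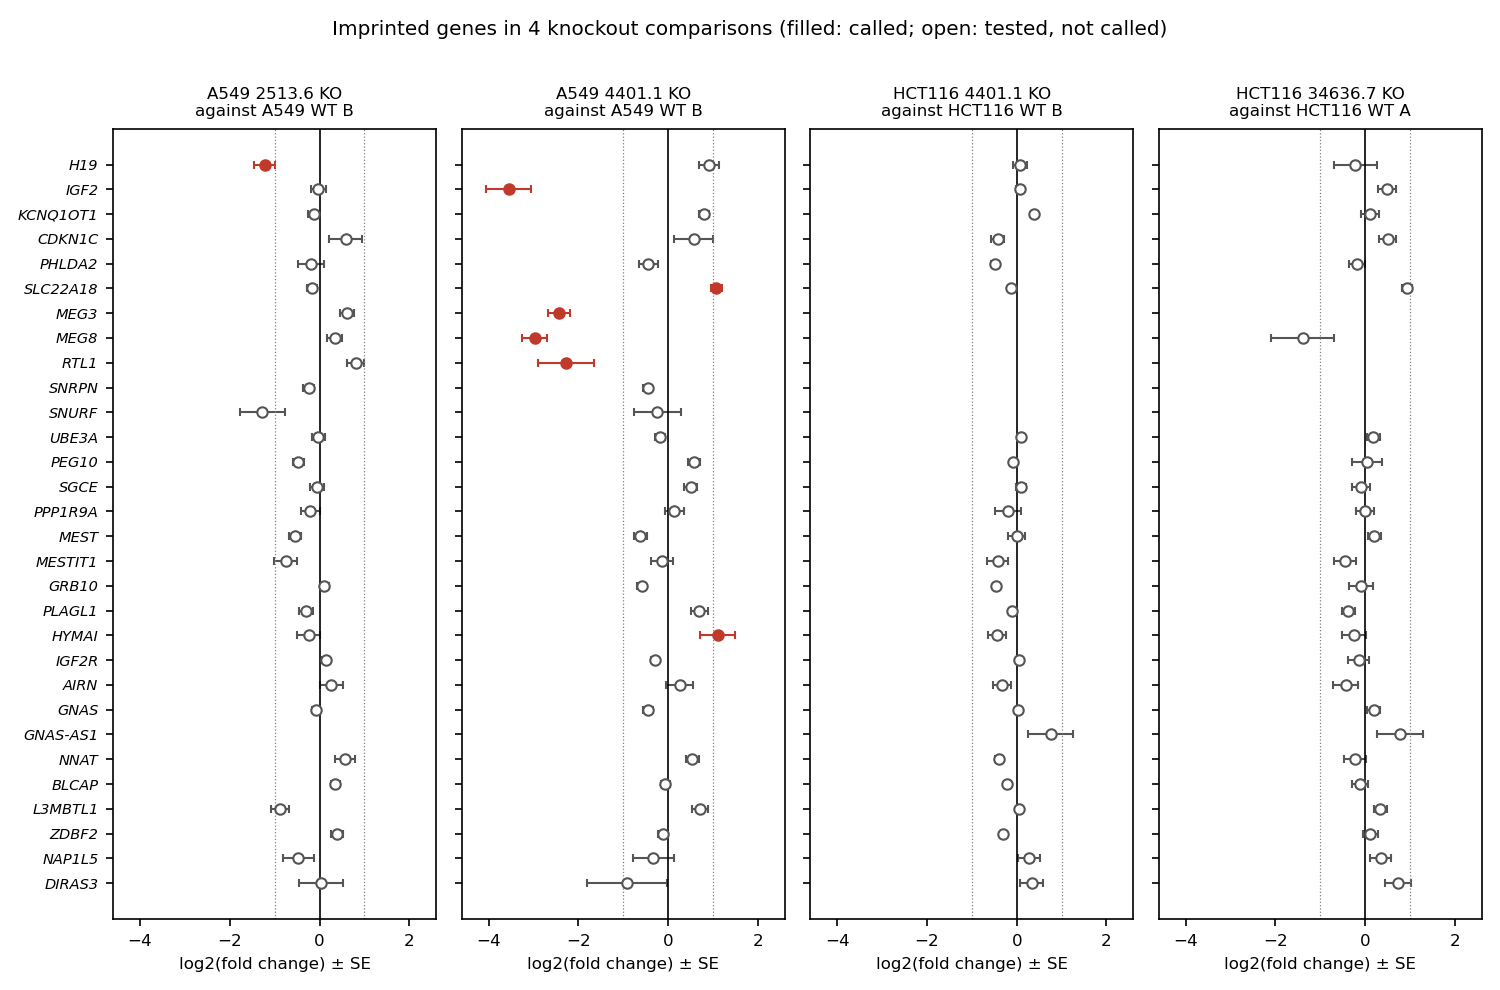
Points are log2(fold change) with SE bars of the imprinted genes tested in 4 KO comparisons, filled where called, with dotted lines at the fold threshold. The A549 MSTRG.4401.1 KO panel holds 6 filled points, from -3.55 for IGF2 to 1.11 for HYMAI, the A549 MSTRG.2513.6 KO panel holds 1 (H19 at -1.23), and both HCT116 panels hold none.

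Whether MSTRG.4401.1 KO acted differently in the cell lines was tested as an interaction over the 12 libraries of both lines, called at an adjusted p below 0.1. Of 30 imprinted genes tested, 14 were called (46.7%), beside 26.9% over all genes tested. The 46.7% includes MEG8 and RTL1, which did not pass the filter on low counts between the HCT116 groups and entered through A549. Their values are not read as a difference in effect. With HCT116 WT A in place of WT B, the calls of GNAS, IGF2R, MEG8, PEG10 and H19 were lost. SNRPN and SNURF, at 0 in HCT116, and GNAS-AS1, at 0 in A549, gave no usable estimate among the 30. The effect in HCT116 minus that in A549 was 3.66 ± 0.46 for IGF2 (adjusted p = 0.000287) and -1.16 ± 0.13 for SLC22A18 (adjusted p = 0.000111), both of which changed in A549 and not detectably in HCT116. IGF2 in HCT116 read 34.8, 34.2 and 31.8 CPM in the KO and 29.2, 32.8 and 33.1 CPM in WT B (0.07 ± 0.08, adjusted p = 0.65). SLC22A18 in HCT116 read 28.6, 26.2 and 28.1 CPM against 30.0, 29.9 and 29.2 CPM (-0.12 ± 0.06, adjusted p = 0.305). The interaction of MEG3 was not called (2.599 ± 1.11, adjusted p = 0.127), and in HCT116 MEG3, MEG8 and RTL1 were at or near 0 in both groups, which leaves no level from which a fall could be seen. The interaction for MSTRG.2513.6 was not tested, since it would rest on S8 and S9.

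The third question was what changed in HCT116. In MSTRG.4401.1 KO, 0 of 25 imprinted genes were called by edgeR, beside 0.996% higher and 1.62% lower over all genes tested, and DESeq2 also called 0. At an unadjusted p below 0.05 there were 9 of 25, beside 25.7% of all genes tested. The adjusted p alone was met by 6, with small and well separated differences. KCNQ1OT1 read 204, 209 and 211 CPM in the KO against 162, 147 and 161 CPM in WT B (0.40 ± 0.04, adjusted p = 0.00131), the same direction as in A549. PHLDA2 read 73.3, 67.1 and 78.2 CPM against 102, 109 and 90.3 CPM (-0.48 ± 0.08, adjusted p = 0.0114). GRB10 was also lower in the KO (-0.45 ± 0.08, adjusted p = 0.0124), as in A549, and so were ZDBF2 (-0.32 ± 0.06, adjusted p = 0.0148), BLCAP, a tumour suppressor candidate (-0.22 ± 0.04, adjusted p = 0.0163), and NNAT (-0.39 ± 0.09, adjusted p = 0.0339). The direction of NNAT rests on the wild-type set, since against WT A it was 2.23 (adjusted p = 0.000207). H19 gave 0.07 ± 0.16 (adjusted p = 0.835).

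In MSTRG.34636.7 KO against WT A, 0 of 26 imprinted genes were called by edgeR, beside 0.729% higher and 0.607% lower over all genes tested, and DESeq2 called 0. An unadjusted p below 0.05 was reached by 6 (23.1%), beside 4319 of 28816 genes in all. SLC22A18 came nearest, with 60.2, 62.3 and 56.5 CPM in the KO against 32.4, 32.7 and 28.9 CPM in WT A, 1.90-fold higher (0.92 ± 0.11, adjusted p = 0.0133). The 6 KO and WT A libraries were fully separated for it, and WT B read 29.2 to 30.0 CPM. IGF2 read 54.7, 50.9 and 60.2 CPM against 29.7, 41.4 and 46.9 CPM, also without overlap, but did not pass the test (0.48 ± 0.19, adjusted p = 0.289). CDKN1C (19.3 ± 1.34 against 13.7 ± 3.48 CPM, 0.50 ± 0.19, adjusted p = 0.264) and DIRAS3, a RAS-related growth suppressor (2.34 ± 0.592 against 1.39 ± 0.305 CPM, 0.73 ± 0.30, adjusted p = 0.3), did not pass it either.

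In MSTRG.2513.6 KO of HCT116, 0 of 26 imprinted genes were called by edgeR with all 3 libraries, beside 0.66% higher and 0.273% lower over all genes tested, and 9 (34.6%) had an unadjusted p below 0.05, beside 20.7% of all genes tested. DESeq2 called 9 on the same libraries. The spread within the group was wide, with S8 and S9 at the levels of A549. SNRPN read 0 CPM in S11, 46.7 in S8 and 50.4 in S9, and PHLDA2 75.2, 11.4 and 11.2 CPM. MEG3 read 0, 34.7 and 38.7 CPM, RTL1 0, 2.95 and 3.37 CPM, and PEG10 33.0, 168 and 169 CPM in the same order. SLC22A18 was above WT B in all 3 libraries (54.9, 43.3 and 35.9 CPM, 0.77 ± 0.13, adjusted p = 0.0989), short of the fold threshold. ZDBF2 was above it in all 3 as well, at 48.5, 52.0 and 55.1 CPM against 30.9 to 32.7 CPM, but did not pass the test (0.92 ± 0.19, adjusted p = 0.114). Without S8 and S9 a single library is left and is assumed to vary like WT B. CDKN1C (19.01 CPM in S11 against 7.93 ± 0.443 CPM, 1.18 ± 0.14, adjusted p = 0.00412) and DIRAS3 (4.35 against 1.01 ± 0.171 CPM, 2.03 ± 0.27, adjusted p = 0.00564) were then called. SLC22A18 was then at 0.80 and ZDBF2 at 0.52, both short of the fold threshold. These were not alone: IGF2 was at 0.84, KCNQ1OT1 at 0.69 and L3MBTL1 at 0.68, while PHLDA2 was at -0.50 and HYMAI at -0.61. Without S11 instead, 18 imprinted genes were called. The shares of all genes called by DESeq2 and without S11 are not given here.

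The wild-type sets of HCT116 also differed from each other. Of 26 imprinted genes tested, 3 were called higher in WT A (11.5%) and 1 lower (3.85%), beside 3.16% higher and 3.9% lower over all genes tested. NNAT read 2.48, 3.08 and 2.26 CPM in WT A and 16.7, 14.9 and 16.1 CPM in WT B, 6.17-fold lower (-2.63 ± 0.18, adjusted p = 7.33e-05). SGCE read 24.2, 29.7 and 16.2 CPM against 10.1, 8.43 and 8.95 CPM (1.33 ± 0.21, adjusted p = 0.00644), and PPP1R9A 77.5, 54.7 and 43.0 CPM against 31.9, 22.5 and 17.4 CPM (1.27 ± 0.27, adjusted p = 0.0241). GRB10 read 111, 58.7 and 50.7 CPM against 36.4, 33.5 and 32.5 CPM (1.09 ± 0.28, adjusted p = 0.0497), a call lost without S12, S13, S14 or WT A 1A. These 4 genes followed the numbering of the libraries across KO and wild type. The 6 libraries numbered 1A to 3A held 1.77 to 3.08 CPM of NNAT (median 2.38), and the 7 S-numbered HCT116 libraries without S8 and S9 held 11.3 to 16.7 CPM (median 14.7). For SGCE the ranges were 16.2 to 29.7 and 8.43 to 12.8 CPM, for PPP1R9A 43.0 to 77.5 and 14.9 to 31.9 CPM, and for GRB10 50.7 to 111 and 23.6 to 40.3 CPM. UBE3A was likewise separated, with 98.0 to 135 CPM in the A-numbered and 152 to 181 CPM in the S-numbered libraries, though it met only the adjusted p between the wild types (-0.56 ± 0.14, adjusted p = 0.0454). The labels do not say what the numbering stands for. MSTRG.34636.7 KO and WT A share it, so a comparison of either with an S-numbered group cannot be told apart from the numbering set.

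**Figure D5:**
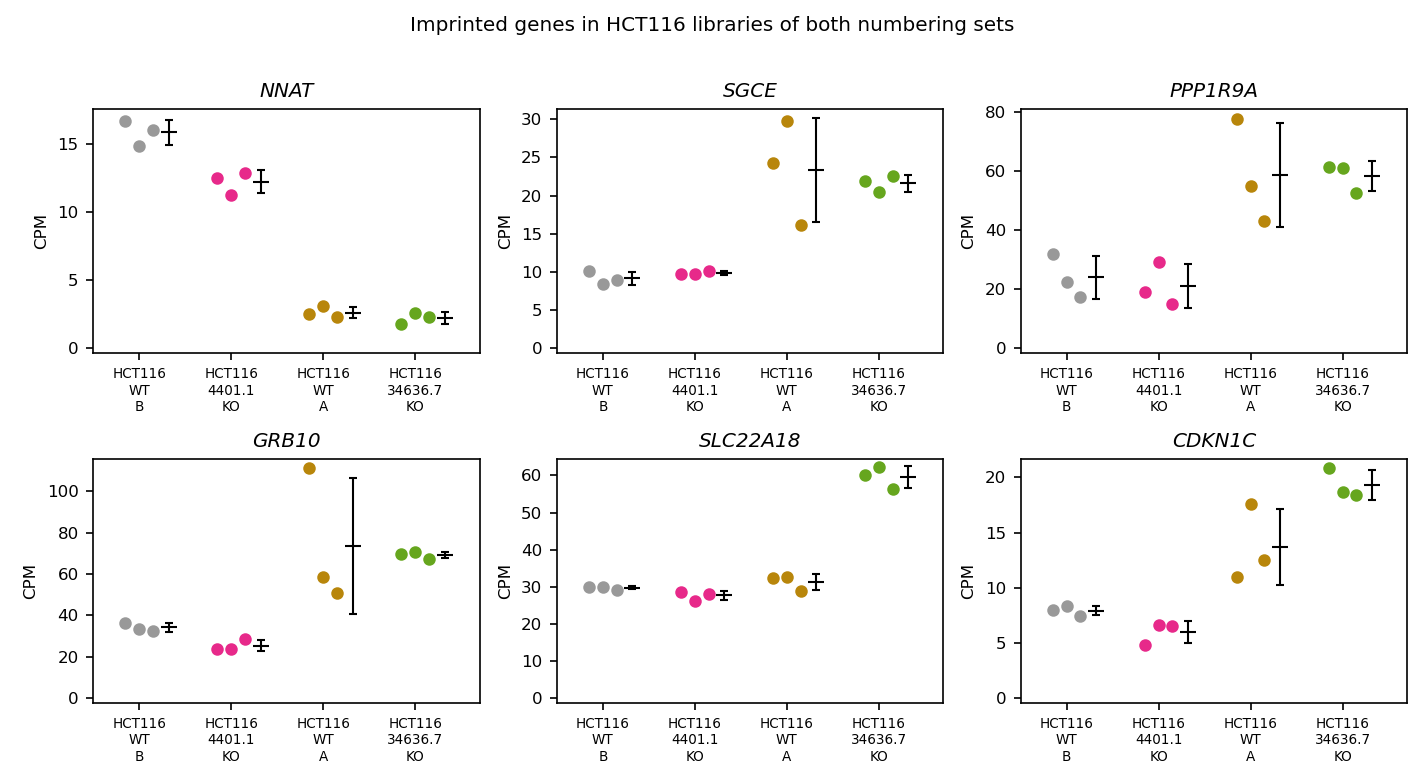
Points are CPM of 1 library each for 6 imprinted genes in HCT116 WT B and MSTRG.4401.1 KO (S-numbered) and WT A and MSTRG.34636.7 KO (A-numbered), with mean and SD (n = 3) beside them. NNAT stands at 11.3 to 16.7 CPM in the S-numbered and 1.77 to 3.08 CPM in the A-numbered libraries, while SLC22A18 is raised only in MSTRG.34636.7 KO among these 4 groups (56.5 to 62.3 CPM).

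Over all 24 libraries, GNAS ran from 294 to 589.7 CPM, IGF2R, the clearance receptor of IGF2, from 157 to 383 CPM, and BLCAP from 35.9 to 55.5 CPM. AIRN, the antisense RNA within IGF2R, ran from 0.955 to 2.39 CPM, NAP1L5, a nucleosome assembly protein gene, from 0.543 to 3.04 CPM, and MESTIT1 from 1.45 to 5.31 CPM, and none of these 3 was called in any comparison.

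A further 41 imprinted genes outside the list were matched by symbol. Their counts are read against the shares of all genes given above for each comparison, and a count of 1 or 2 is no more than a description. In A549 MSTRG.4401.1 KO 2 of 27 tested rose and 2 fell, in A549 MSTRG.2513.6 KO 0 of 27 rose and 1 fell, and in HCT116 the counts were 1 and 1 of 23 in MSTRG.4401.1 KO, 1 and 1 of 24 in MSTRG.34636.7 KO and 0 of 24 in MSTRG.2513.6 KO. CPA4, a carboxypeptidase gene near MEST, was called lower in 3 of these KOs: 0.629 ± 0.481 against 4.05 ± 0.581 CPM in A549 MSTRG.4401.1 KO (-2.75 ± 0.50, adjusted p = 0.00516), 25.1 ± 0.846 against 82.9 ± 2.47 CPM in HCT116 MSTRG.4401.1 KO (-1.74 ± 0.05, adjusted p = 6.09e-06) and 16.4 ± 2.09 against 88.6 ± 61.7 CPM in HCT116 MSTRG.34636.7 KO (-2.47 ± 0.46, adjusted p = 0.0612). PON1, a paraoxonase gene beside PPP1R9A, rose in A549 MSTRG.4401.1 KO (1.43 ± 0.26, adjusted p = 0.00542), and LIN28B fell in A549 MSTRG.2513.6 KO (-1.11 ± 0.24, adjusted p = 0.0471). In HCT116, DIO3 rose in MSTRG.4401.1 KO (1.00 ± 0.28, adjusted p = 0.0616) and SGK2 in MSTRG.34636.7 KO (1.19 ± 0.22, adjusted p = 0.0605). Between the A549 KOs, against 5.75% higher and 10.9% lower over all genes, 4 of 28 were higher and 4 lower in MSTRG.2513.6 KO, led by CPA4 (3.33 ± 0.52, adjusted p = 0.00279), MEG9 (2.57 ± 0.76, adjusted p = 0.0358) and LIN28B (-1.35 ± 0.27, adjusted p = 0.00836). Between the wild-type lines, against 17.2% and 18.5%, 12 of 28 were higher and 5 lower in A549, with ATP10A (61.1 ± 6.29 CPM against 0, at least 1192-fold), SLC22A3 (53.5 ± 13.6 CPM against 0, at least 1042-fold) and ZNF331 (30.6 ± 2.13 against 0.0208 CPM) in front, and between the HCT116 wild types PON1 was the only call of 24, lower in WT A (-1.38 ± 0.37, adjusted p = 0.0627).

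Of 30 genes that set or maintain imprints, among them DNA methyltransferases, their cofactors and zinc finger proteins, 25 or 26 were tested in each comparison. None was called in either A549 KO against wild type, or in MSTRG.4401.1 and MSTRG.34636.7 KO of HCT116. HELLS, a chromatin remodeller that aids DNA methylation, was called lower in HCT116 MSTRG.2513.6 KO (-1.12 ± 0.14, adjusted p = 0.081), where all 3 libraries (18.5 to 23.8 CPM) lay below the 51.9 to 55.5 CPM of WT B. Without S8 and S9, which leaves 1 library, its log2(fold change) was -1.25 ± 0.08. HELLS was not alone in this: EZH2 was at -1.56, UHRF1 and MBD3 at -0.83 and DNMT1 at -0.66. Other genes of the list were higher in that fit, among them TET1 (0.79) and ARID4A (0.66). HELLS was also lower in A549 WT B than in HCT116 WT B (-1.22 ± 0.10, adjusted p = 3.6e-05). DNMT3B, a de novo methyltransferase, was lower in A549 MSTRG.2513.6 KO than in A549 MSTRG.4401.1 KO (19.6 ± 2.10 against 60.3 ± 7.34 CPM, -1.48 ± 0.15, adjusted p = 0.000284), as was HELLS (-1.02 ± 0.33, adjusted p = 0.0503). DNMT3B was also lower in HCT116 WT A than in WT B (-1.20 ± 0.20, adjusted p = 0.0084), as was the demethylation enzyme TET3 (-1.02 ± 0.27, adjusted p = 0.0565). Between the lines ATRX was higher in A549 (1.02 ± 0.06, adjusted p = 4.6e-06), and ZNF445, an imprint-binding zinc finger protein, was lower (-1.07 ± 0.08, adjusted p = 2.78e-05).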

How the data were processed

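RNA was measured in 24 libraries, 3 in each of 8 groups, from total RNA depleted of ribosomal RNA and prepared with a strand-specific kit per the labels. The authors trimmed reads with Trim Galore 0.6.6, checked them with FastQC 0.11.9, aligned them to GRCh38 with HISAT2 2.2.1 (versions from the submitters' processing notes), quantified transcripts with StringTie and deposited 1 table of whole-number counts for each library, by gene symbol. The annotation release, the strand setting and the step to whole counts are not given in the sources used here. Only the 60641 symbols common to all libraries were kept (3 others occur in the A-numbered libraries alone).

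Each comparison was fitted on all genes passing filterByExpr, with TMM scaling and the quasi-likelihood test of edgeR 4.0.16 (R 4.3.3, limma 3.58.1), using only its own groups. The interaction used 4 groups. Genes were called at an adjusted p below 0.1 and, except for the interaction, a log2(fold change) beyond 1 in size. The script was tested on simulated data. Alternatives were an adjusted p below 0.05, no fold threshold, upper-quartile scaling, no filter, at least 10 counts in every library, DESeq2 1.42.0, all libraries in 1 fit, the other HCT116 wild type, a replicate block, removal of S8 and S9, and each library left out in turn. Replicates differed beyond sampling noise in all 24 pairs (chi-square per degree of freedom at least 14.2). The floor of 3 counts covers counting error only. With 3 against 3 libraries an exact permutation test cannot go below p = 0.1, so none was run.

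All 36 genes are accounted for. Values are given in full for genes called in any comparison or with a mean of at least 1 CPM in any group, and from the 2 other gene lists at most 3 called genes per comparison, those with the largest change and no overlap. The genes and lists were chosen with earlier results of these data known. Gene positions come from GENCODE release 44 and promoter windows from RefSeq (GRCh38.p14).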

Additional observations from a re-analysis of the deposited data

Results flagged for a closer look

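A difference in the effect of MSTRG.4401.1 KO between the cell lines was called in 14 imprinted genes by the interaction test (edgeR's quasi-likelihood test, adjusted p below 0.1), given here as the log2(fold change) in HCT116 minus that in A549. In 6 genes it was higher in HCT116. IGF2 differed by 3.66 (adjusted p = 0.000287), MEG8 by 2.73 (adjusted p = 0.0086), GNAS by 0.51 (adjusted p = 0.0158), IGF2R by 0.38 (adjusted p = 0.0227), UBE3A by 0.31 (adjusted p = 0.0709) and RTL1 by 6.06 (adjusted p = 0.0897). The values of RTL1 and MEG8 are fitted values from genes at or near 0 in HCT116, where RTL1 had counts in 1 KO library and in no WT B library, so they are not read as a difference in effect. The RTL1 call is lost in 9 of 12 leave-outs, and that of UBE3A in 7 of 12.

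In 8 genes it was lower in HCT116. SLC22A18 differed by -1.16 (adjusted p = 0.000111), NNAT by -0.88 (adjusted p = 0.00243), PLAGL1 by -0.77 (adjusted p = 0.0165), PEG10 by -0.62 (adjusted p = 0.0169), HYMAI by -1.51 (adjusted p = 0.0328), KCNQ1OT1 by -0.36 (adjusted p = 0.0358), L3MBTL1 by -0.61 (adjusted p = 0.0387) and H19 by -0.81 (adjusted p = 0.052, lost in 5 of 12 leave-outs). With HCT116 WT A in place of WT B, the calls of GNAS, IGF2R, MEG8, PEG10 and H19 were lost, and the direction turned for NNAT (1.68) and IGF2R (-0.0965). The A549 side of all 14 values rests on the MSTRG.4401.1 KO libraries with the higher mitochondrial share, whose part was not tested.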

How the results depend on the processing

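The counts of imprinted genes called between the wild types (4 between the HCT116 sets, 15 between the lines) stayed within 1.5 times under every alternative run. The genes behind the count changed, however. Between the lines, with HCT116 WT A in place of WT B, GRB10, PPP1R9A and SGCE lost their calls. NNAT (2.49), DIRAS3 (-1.11) and GNAS-AS1 (-7.69) were called instead. Without the fold threshold the counts were 6 for A549 MSTRG.2513.6 KO, 18 for A549 MSTRG.4401.1 KO, 17 between these KOs, and, in HCT116, 6 for MSTRG.4401.1 KO and 1 each for the KOs of MSTRG.2513.6 and MSTRG.34636.7. Shares of all genes under these alternatives are not given here, so the counts only describe the imprinted genes. In A549 MSTRG.4401.1 KO, an unadjusted p below 0.05 in edgeR's test was reached by 62.1% of the imprinted genes and 45.3% of all genes tested. Leaving out 1 library in turn gave 0 to 2 for A549 MSTRG.2513.6 KO (2 without S19), 0 to 18 for HCT116 MSTRG.2513.6 KO (18 without S11) and 0 to 1 for HCT116 MSTRG.34636.7 KO (1, GNAS-AS1, without WT A 2A). For HCT116 MSTRG.2513.6 KO, DESeq2 and a fit of all libraries each called 9, WT A in place of WT B 1, and removal of S8 and S9 2. Exchanging the wild type gave 5 for HCT116 MSTRG.4401.1 KO and 6 for MSTRG.34636.7 KO.

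Among genes called in the main fit or in the alternative, directions turned only with libraries exchanged or left out. A further 133 values changed sign in genes called in neither fit, and these are not listed. In HCT116 MSTRG.2513.6 KO, DIRAS3 ran from -1.35 without S11 to 1.16 without S8, GNAS-AS1 from -6.56 to 0.77 likewise, and CDKN1C was 1.18 without S8 and S9. With the other wild type, NNAT was 2.23 and SGCE -1.24 in HCT116 MSTRG.4401.1 KO, PPP1R9A 1.26 and SGCE 1.22 in MSTRG.34636.7 KO, NNAT 2.49 between the lines, and the interaction was -0.98 for GRB10, -0.0965 for IGF2R and 1.68 for NNAT. The cause was not tested. Upper-quartile scaling shifted the median of all genes by 0.17 for MSTRG.4401.1 KO of A549 and by -0.20 between the A549 KOs, where 12 genes were called.

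Same-numbered libraries did not deviate together (r from -0.0776 to 0.0360), so the numbers do not pair them. The replicate block called 0 in MSTRG.34636.7 KO, 4 between the HCT116 wild types and 15 between the lines, as without it. Low depth limits the A549 MSTRG.4401.1 KO, where 3 counts are 0.107 CPM on average.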

Other observations

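The genes that lie within 2 Mb of each imprinted domain, other than the imprinted genes listed here, were also summarised, as a description without a test. Around SNRPN on chromosome 15, 22 such genes were tested between A549 WT B and HCT116 WT B. Of these, 18 were called higher and 0 lower in A549 by edgeR's quasi-likelihood test, beside 17.2% higher and 18.5% lower over all genes tested. Between the HCT116 wild types only 8 such genes passed the filter on low counts. Most of the 22 thus entered the test through A549, where they are high. Their calls were largely set by the filter, and the count is not read against the share of all genes. The absence of SNRPN and SNURF counts in HCT116 lay among neighbours that were mostly lower there too. Only listed imprinted genes were removed from these neighbours. Transcripts that overlap SNRPN and any other unlisted imprinted transcripts may remain, so the neighbours need not be separate from the imprinted unit. Around DLK1-MEG3 on chromosome 14, 6 of 34 neighbours were higher and 4 lower between the lines.

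In A549 MSTRG.4401.1 KO, where MEG3, MEG8 and RTL1 fell, 4 of 32 neighbours of their domain were higher and 2 lower, beside 11.1% higher and 4.32% lower over all genes tested in this comparison, with a median log2(fold change) of -0.14 against -0.01 over chromosome 14. Around IGF2-H19, where IGF2 fell, 10 of 80 neighbours were higher and 0 lower (median 0.08 against -0.10 over chromosome 11). Around KCNQ1OT1, where SLC22A18 rose, 9 of 61 were higher and 0 lower (median 0.07). These 2 windows of chromosome 11 share genes, and their shares of genes higher are near the 11.1% of all genes. Around SNRPN, 4 of 25 were higher and 1 lower (median 0.58 against -0.01 over chromosome 15). In A549 MSTRG.2513.6 KO, 0 of 34 neighbours of DLK1-MEG3 were called in either direction, beside 1.13% higher and 1.79% lower over all genes tested.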
